A study of Mus musculus with 238 samples.

Results

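Diet restriction was examined in the libraries whose titles name the choroid plexus and 1 of both diets of the study: 5 libraries of restricted mice (aDR) against 4 of freely fed mice (AL, ad libitum), 9 of the 238 libraries of the series, with all genes compared. The series mapped a diet and a plasma treatment over brain regions and liver by bulk RNA sequencing. All 9 mice were females of the C57BL/6JN strain, 19 months old, and each gave 1 choroid plexus library. The aDR mice were dietary restricted and the AL mice had free access to food. The labels name no length or degree of restriction, no hour of tissue collection, no ventricle and no genetic modification. RNA came from homogenised tissue and was amplified as full-length cDNA by the Smart-Seq2 method, which kept no strand information.

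The choroid plexus is a folded sheet in the brain ventricles: a single layer of secretory epithelium over a stroma with leaky, fenestrated capillaries. Its epithelium makes most of the cerebrospinal fluid, seals blood from fluid by tight junctions, secretes transthyretin (the thyroid hormone carrier encoded by Ttr), and carries receptors and transporters for hormones, folate and drugs. It also holds a circadian clock and lies open to hormones of the blood, among them those that report feeding state.

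The label was checked first against marker genes, in CPM (the count of a gene per M counts of its library, M standing for mega). The summed level of 19 choroid plexus epithelial genes was 12570, 5284, 13069, 6882 and 1866 CPM in aDR mice 61, 62, 64, 65 and 67, and 2036, 1326, 10693 and 15459 CPM in AL mice 63, 66, 68 and 69. The lowest 3 libraries, aDR mouse 67 and AL mice 63 and 66, lay below the mean of the SVZ libraries (3746 CPM), the highest of the 11 other brain regions, whose median was 411 CPM. Ttr itself was at 6783, 3145, 6659, 3795 and 783 CPM in the aDR mice and at 899, 609, 5763 and 8167 CPM in the AL mice. Libraries with much and with little epithelium therefore stood in both diets, and the groups overlapped over nearly their whole range. Markers of brain tissue were as abundant as in the brain regions themselves. The summed neuron markers took 8682 to 11271 CPM in aDR and 8207 to 10946 CPM in AL, against 6270 to 14123 CPM in the other regions. Astrocyte markers took 3710 to 4373 CPM and 3961 to 4336 CPM. Oligodendrocyte markers took 3937 to 19678 CPM and 6092 to 21282 CPM. Across 14136 genes, the mean AL profile was most like posterior hippocampus, with a Pearson correlation of 0.974 of log2 CPM across genes, which are not independent replicates. Anterior hippocampus (0.968) and SVZ (0.965) were close to it, so the rank hardly separates these regions. The profile includes AL mice 63 and 66, both low in epithelium, and no aDR library. Epithelial genes exceeded their mean level in every other region in 6 of 9 libraries, and these 6 also held brain markers at brain levels. In the lowest 3 libraries the epithelial level was no higher than in SVZ, so the markers do not set them apart from a region beside the ventricle, and the label was not borne out there by this measure. Values for Rbm3 and for the lists described most closely are therefore given with and without these 3 libraries. The fit without them sets aDR mice 61, 62, 64 and 65 against AL mice 68 and 69 only.

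**Figure D1:**
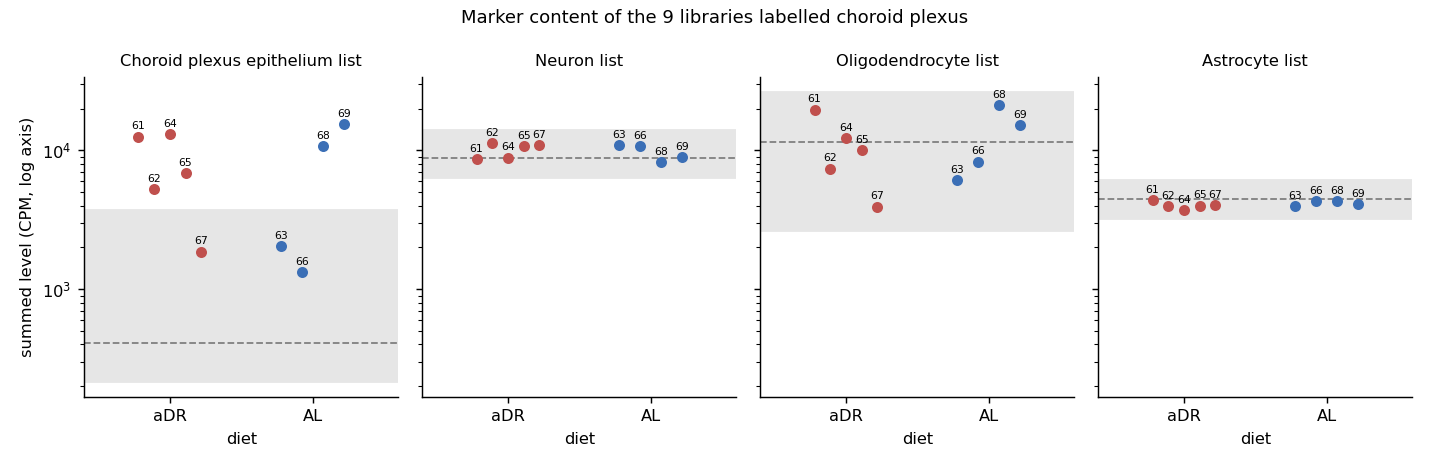
Summed level of 4 marker lists in each of the 9 libraries labelled choroid plexus, in CPM on a log axis, by diet, with the mouse number over each point. The grey band spans the means of the 11 other brain regions and the dashed line is their median: epithelial markers ran from 1326 to 15459 CPM within the plexus libraries, and neuron and astrocyte markers lay inside the band.

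Each library held 5.05 to 19.8 M counts and mitochondrial genes took 2.11% to 2.94% of the counts. The 2 shallowest libraries, aDR mouse 67 and AL mouse 66, were also among the 3 lowest in epithelial genes. No replicate pair was alike within sampling noise (chi-square per degree of freedom of at least 6.54).

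Of 14136 genes tested, 1 was called at an adjusted p under 0.05, which is 0.00707%: Rbm3, which rose in restricted mice (edgeR quasi-likelihood test, Benjamini-Hochberg adjustment over all genes). Rbm3 encodes an RNA-binding protein that is induced by mild cooling. It was at 107, 119.5, 105, 106 and 96.3 CPM in the 5 aDR libraries and at 65.8, 64.8, 53.4 and 62.1 CPM in the 4 AL libraries. Every restricted mouse lay above every freely fed mouse. The libraries low in epithelium, at 96.3 CPM in aDR and at 65.8 and 64.8 CPM in AL, lay on the same sides as the others of their diet. The means were 107 ± 8.28 CPM (SD, n = 5) and 61.5 ± 5.62 CPM (SD, n = 4), a log2 change of 0.81 with a standard error (SE) of 0.087 and an adjusted p of 0.0432 in edgeR. The call rested on all 9 libraries: without any 1 of them the log2 change stayed between 0.74 and 0.84, but the edgeR adjusted p was 0.0854 to 0.376. With the epithelial marker sum as a covariate the log2 change was 0.83, with an adjusted p of 0.0185. With the summed neuron, astrocyte and oligodendrocyte markers as a covariate it was 0.80 (adjusted p 0.0189). Without the 3 libraries lowest in epithelium it was 0.94, with an edgeR adjusted p of 0.555. In these bulk libraries, fewer cells of a type and less RNA per cell cannot be told apart.

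Cirbp, the other mammalian cold-inducible RNA-binding protein of this family, was the gene next in p. It was at 187, 163, 153, 173 and 140.3 CPM in the aDR libraries and at 101, 112, 109 and 107 CPM in the AL libraries. The groups did not overlap. The log2 difference was 0.62 (SE 0.085, edgeR adjusted p 0.176), so Cirbp was not called in edgeR, while DESeq2, run as an alternative, called it with an adjusted p of 3.84e-07. Rbm3os, annotated antisense to Rbm3, was at 6.03 ± 0.427 CPM in aDR and 3.06 ± 0.325 CPM in AL (SD, n = 5 and 4, as for all later means; log2 difference 0.98, edgeR adjusted p 0.176). In GENCODE M21 (GRCm38), Rbm3 lies on the minus strand at chrX:8138975-8145880 and Rbm3os on the plus strand at chrX:8145429-8147964. They share 452 bases, and without strand information reads of that stretch cannot be assigned to 1 of them.

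A RefSeq promoter window of Cirbp is shown because it holds a mild-cold-responsive element (the letters TCCCCGCC, searched on both strands). RefSeq (GRCm38.p6) gives 2 such windows for Cirbp, before 2 transcript starts, and both lie inside the longer GENCODE M21 span of the gene, chr10:80165985-80172786 on the plus strand. The window printed is chr10:80167589-80167777, 189 bases that end before the next annotated exon, with the element in capitals. The other, chr10:80167921-80168170, holds 0 matches.

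Cirbp: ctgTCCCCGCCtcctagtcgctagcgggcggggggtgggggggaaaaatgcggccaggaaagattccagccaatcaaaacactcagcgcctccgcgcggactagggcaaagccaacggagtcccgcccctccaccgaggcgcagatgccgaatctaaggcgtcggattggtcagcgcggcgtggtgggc

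The match describes this window only. The same letters stand in 5.382% of the 32851 RefSeq promoter windows (250 bases before to 50 after a gene's start). Among 20 leading genes with a promoter entry, the promoters of Cirbp, Map3k9 and Rbm3os hold them. Rbm3 had no such entry, so its promoter was not searched for this or any other element. Of 17 heat and cold shock genes tested, 2 were higher (Rbm3 and Cirbp) and 2 were lower (Hsf1, the heat shock transcription factor, and Hspa4l, a chaperone of the Hsp110 family) at an unadjusted p under 0.05. Over all genes tested, 1.20% were higher and 1.55% lower at that threshold. The list's median log2 difference was -0.06, against 0.0018 for all genes. Hsp70 family member Hspa8 was at 2380 ± 126 CPM in aDR and 2578 ± 102 CPM in AL.

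**Figure D2:**
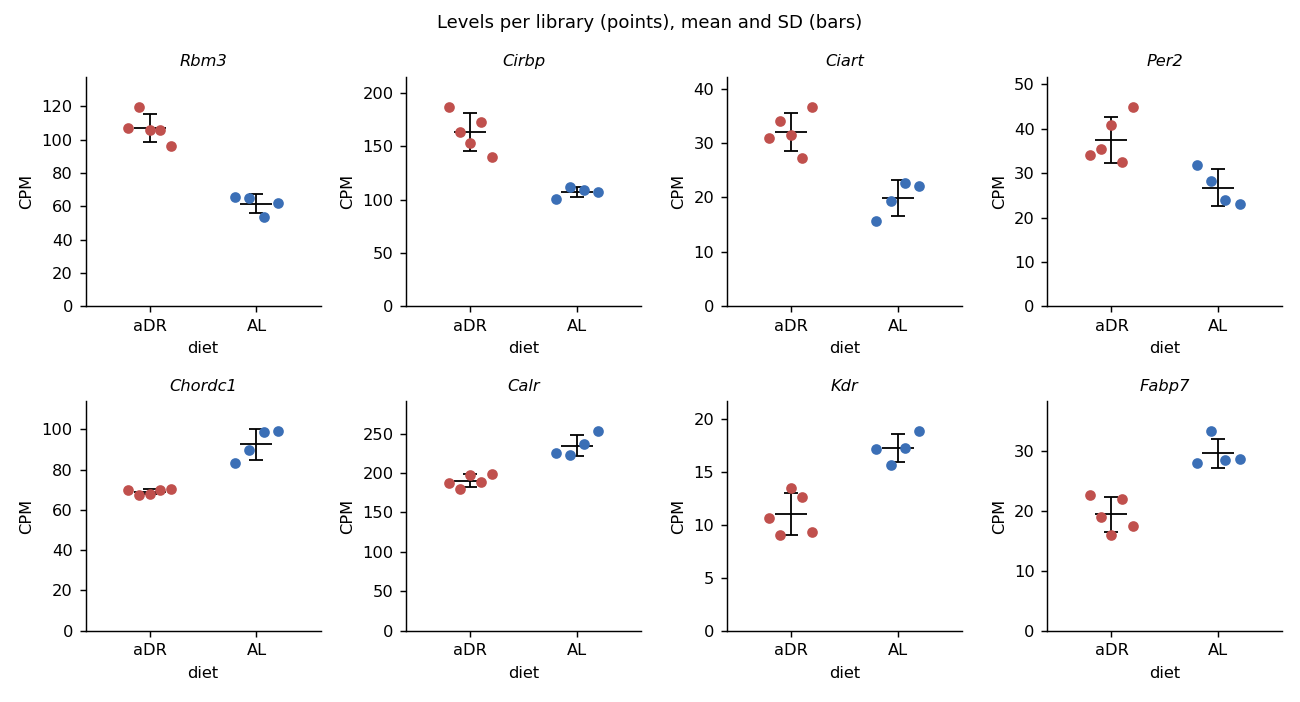
Level of 8 genes in CPM in each library (points), by diet, with the mean (horizontal line) and SD (bar); axes start at 0. Rbm3, Cirbp, Ciart and Per2 lay higher in all 5 aDR libraries than in all 4 AL libraries, and Chordc1, Calr, Kdr and Fabp7 lower, while only Rbm3 was called in edgeR.

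Genes of the circadian clock were next. The clock is a loop in which the activators Clock and Arntl drive E-box genes, among them their own repressors of the period and cryptochrome families, and Rev-erb proteins such as Nr1d1 repress Arntl. Of 20 clock genes tested, 7 were higher in aDR at an unadjusted p under 0.05 and 0 were lower, against 1.20% and 1.55% of all genes. None was called in edgeR. The median log2 difference was 0.14, and 15 of the 20 were higher. This list, like the other lists here, was chosen with earlier results of these data known. Its count against the share of all genes is therefore not independent support.

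Ciart, a repressor of Clock and Arntl, was at 31.0, 34.1, 31.4, 27.3 and 36.6 CPM in aDR and at 15.6, 19.3, 22.6 and 22.2 CPM in AL. All aDR libraries lay above all AL libraries, with a log2 difference of 0.69 (SE 0.128, edgeR adjusted p 0.702). Non-overlap of this kind, with aDR above, was found in 0.623% of all genes and in 4 of the 20 clock genes. Ciart has E-boxes in its promoter, shown here for that reason: 227 bases of RefSeq sequence (GRCm38.p6) upstream of the first exon, on the minus strand at chr3:95882252-95882478, with the 3 CACGTG matches in capitals.

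Ciart: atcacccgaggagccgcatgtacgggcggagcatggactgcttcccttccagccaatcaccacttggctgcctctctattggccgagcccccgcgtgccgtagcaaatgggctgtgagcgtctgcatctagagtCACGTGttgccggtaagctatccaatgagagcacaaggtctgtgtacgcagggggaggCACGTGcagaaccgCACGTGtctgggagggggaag

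The 3 matches begin 93, 35 and 21 bases before the exon. CACGTG, which reads the same on both strands, stands in 7.15% of the 32851 promoter windows and in those of 5 of the 20 leading genes with an entry (Calr, Ciart, Fam163a, Nr1i3 and Rbm3os). The D-box TTATGNAA, searched on both strands, stands in 3.385% of the windows and in 0 of these genes.

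Among the period genes, Per2 was at 34.0, 35.5, 40.9, 32.4 and 44.9 CPM in aDR and at 31.8, 28.3, 24.04 and 22.99 CPM in AL. The groups did not overlap, but the lowest aDR and the highest AL library lay close together (log2 difference 0.48, SE 0.130). Per1 did not overlap either, with 27.8 ± 1.68 CPM in aDR and 21.3 ± 3.14 CPM in AL (log2 difference 0.39). The cryptochromes Cry1 (log2 difference 0.41) and Cry2 (0.25), the D-box activator Dbp (0.32) and the deubiquitinase Usp2 (0.30), an output of the clock, made up the rest of the 7. The Rev-erb gene Nr1d1 was at 129 ± 9.45 CPM in aDR and 127 ± 16.2 CPM in AL, a log2 difference of 0.03 whose sign changed between alternatives. Arntl was at 23.5 ± 2.14 CPM and 26.9 ± 5.54 CPM (log2 difference -0.20). Its sign changed only without the 3 libraries lowest in epithelium, to a log2 difference of 0.01. In mean CPM, Arntl was lower in restricted mice in 11 of 11 other brain regions. Without the 3 libraries lowest in epithelium, 5 clock genes were higher and 2 lower at an unadjusted p under 0.05, against 3.99% and 3.86% of all genes in that fit. With the neural marker covariate 8 were higher and 0 lower, against 1.90% and 2.33% of all genes. With the epithelial covariate 8 were higher and 2 lower, against 5.07% and 5.92%.

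Targets of glucocorticoids, the adrenal hormones that act through a nuclear receptor, also lay mostly higher in aDR. Of 22 tested, 6 were higher at an unadjusted p under 0.05 (against 1.20% of all genes), 0 were lower and 0 were called in edgeR. By direction alone 20 of the 22 were higher, with a median log2 difference of 0.18. Earlier results of these data were known when this list was chosen, so an excess over 1.20% may be partly built in. Plin4, Fmo2 and Hif3a, among the 6, also differed by diet over the other regions of the same mice (limma adjusted p 0.013, 0.022 and 0.039). The lipid droplet coat gene Plin4 was at 22.5, 11.7, 18.3, 8.33 and 9.89 CPM in aDR and at 2.83, 2.75, 6.63 and 5.83 CPM in AL. Its levels varied within both diets, yet the groups did not overlap (log2 difference 1.63, SE 0.370, edgeR adjusted p 0.9995). Hif3a, a hypoxia-inducible factor subunit, was at 4.55 ± 0.927 CPM in aDR and 2.22 ± 0.433 CPM in AL (log2 difference 1.04). Sult1a1, a phenol sulfotransferase, was at 10.7 ± 2.19 CPM and 6.09 ± 0.890 CPM (0.81). The flavin monooxygenase Fmo2 (log2 difference 1.19), the kinase Map3k6 (0.77) and the cell cycle inhibitor Cdkn1a (0.45) completed the 6. Fmo2 overlapped between the diets. Without the 3 libraries lowest in epithelium the log2 difference was 1.27 for Plin4, 0.97 for Hif3a, 0.58 for Sult1a1, 0.57 for Fmo2 and 0.20 for Cdkn1a. Fkbp5, a receptor co-chaperone and well known target, was at 74.3 ± 15.1 CPM and 59.9 ± 10.6 CPM (log2 difference 0.31) and did not reach that threshold. It did so with the epithelial covariate (0.40) and without the 3 libraries lowest in epithelium (0.44), but was not called in either fit. Tsc22d3, another such target, was at 138 ± 23.3 CPM and 113 ± 17.2 CPM. Sgk1, a kinase that regulates ion channels, was at 402, 157, 212, 199 and 171 CPM in aDR and at 108.3, 103, 195 and 252 CPM in AL. The groups overlapped, and aDR mouse 61 stood apart. With the neural marker covariate 10 of the 22 were higher at an unadjusted p under 0.05 and 0 lower, against 1.90% and 2.33% of all genes. With the epithelial covariate 8 were higher and 1 lower, against 5.07% and 5.92%. Without the 3 libraries lowest in epithelium 5 were higher and 0 lower, against 3.99% and 3.86%, with a median log2 difference of 0.11.

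Markers of capillary endothelium lay mostly lower in aDR. Of 12 tested, 11 were lower by direction and 7 at an unadjusted p under 0.05 (against 1.55% of all genes), with a median log2 difference of -0.29 and 0 called in edgeR. Their summed level was 172 to 193 CPM in aDR and 207 to 239 CPM in AL, which did not overlap. Since this list too was chosen with earlier results known, its excess over 1.55% may be partly built in. Kdr, the main receptor for vascular endothelial growth factor, was at 10.7, 9.02, 13.5, 12.6 and 9.30 CPM in aDR and at 17.2, 15.6, 17.2 and 18.8 CPM in AL. All aDR libraries lay below all AL libraries (log2 difference -0.64, SE 0.129, edgeR adjusted p 0.704), as in 0.785% of all genes and 4 of these 12. Pecam1, an endothelial adhesion molecule, was at 10.6 ± 1.04 CPM in aDR and 14.8 ± 1.24 CPM in AL (log2 difference -0.46) without overlap. The angiopoietin receptor Tek (log2 difference -0.48), Cldn5, the tight junction protein of brain capillaries (-0.57), Eng (-0.22), Tie1 (-0.35) and Flt1, another receptor of the growth factor (-0.24), made up the 7. Plvap, which forms the diaphragms of fenestrated capillaries and so marks plexus rather than brain vessels, was at 12.6 ± 1.21 CPM in aDR and 12.9 ± 1.32 CPM in AL (log2 difference -0.01). Egfl7 was at 38.8 ± 5.03 CPM and 38.3 ± 5.16 CPM. Mfsd2a, a lipid transporter of the blood-brain barrier outside this list, lay the other way, at 20.3 ± 2.70 CPM in aDR and 14.5 ± 1.43 CPM in AL (log2 difference 0.49) without overlap. With the epithelial covariate 7 endothelial genes were lower, against 5.92% of all genes in that fit, and with the neural covariate 7, against 2.33%. Without the 3 libraries lowest in epithelium 4 were lower, against 3.86%.

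Other cells of the vessel wall and stroma were fewer in passing genes. Of 8 mural cell markers, 2 were lower at an unadjusted p under 0.05, Acta2 (11.5 ± 2.34 CPM against 18.1 ± 6.94 CPM), a smooth muscle actin, and Rgs5, a pericyte marker (42.1 ± 3.68 CPM against 51.5 ± 6.57 CPM). Of 8 stromal markers, 2 were lower, Col1a1 (log2 difference -0.55) and Slc6a13 (-0.75). The share of all genes that were lower was 1.55%, and no gene of either list was called in edgeR. Both counts were 2 with the epithelial covariate (against 5.92% of all genes) and with the neural covariate (against 2.33%). They were 0 without the 3 libraries lowest in epithelium (against 3.86%). In that smaller fit the log2 differences were -0.60 for Col1a1, -0.66 for Slc6a13, -0.23 for Rgs5 and -0.29 for Acta2.

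Genes with roles in protein folding were looked at next, and none was called in edgeR. Chordc1, a co-chaperone of Hsp90, was at 70.1, 67.2, 67.9, 69.6 and 70.4 CPM in aDR and at 83.1, 89.8, 98.5 and 98.9 CPM in AL. The 5 aDR libraries lay close together and all below the AL libraries (log2 difference -0.42, SE 0.063, edgeR adjusted p 0.218). Calr, a calcium-binding chaperone of the endoplasmic reticulum, was at 188, 179, 198, 188 and 199 CPM in aDR and at 226, 223, 237 and 253 CPM in AL. It did not overlap either (log2 difference -0.30, SE 0.058, edgeR adjusted p 0.704). Of 20 genes of endoplasmic reticulum folding tested, 18 were lower by direction, with a median log2 difference of -0.09. Calr alone was lower at an unadjusted p under 0.05, against 1.55% of all genes. Without the 3 libraries lowest in epithelium the count at that threshold was 10 of 20, against 3.86% of all genes. That fit holds AL mice 68 and 69 only as freely fed mice. On all 9 libraries with the epithelial covariate, 7 of the 20 were lower and 0 higher, against 5.92% and 5.07% of all genes. With the neural covariate 1 was lower and 0 higher, against 2.33% and 1.90%. The chaperones Hsp90b1 (293 ± 21.5 CPM against 328 ± 40.7 CPM) and Hspa5 (356 ± 36.8 CPM against 379.9 ± 58.8 CPM), the main Hsp90 and Hsp70 of that compartment, overlapped between diets.

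The remaining genes with the smallest p and no overlap belonged to several functions. On the higher side, Gsr, glutathione reductase, was at 62.1 ± 1.67 CPM in aDR and 52.5 ± 1.51 CPM in AL (log2 difference 0.25). Ppat, the first enzyme of purine synthesis, was at 31.4 ± 1.97 CPM and 24.6 ± 2.48 CPM (0.35). Mertk, a receptor kinase for the uptake of dying cells, was at 47.0 ± 8.71 CPM and 32.5 ± 4.08 CPM (0.53), and Kirrel2 and Map3k9 differed by 0.96 and 0.47 on the log2 scale. On the lower side, Fabp7, a fatty acid binding protein of astrocytes and radial glia, was at 22.7, 19.0, 15.9, 22.02 and 17.4 CPM in aDR and at 27.97, 33.2, 28.5 and 28.6 CPM in AL. The highest aDR library lay below the lowest AL library (log2 difference -0.59, SE 0.118, edgeR adjusted p 0.704). Hltf, a helicase-like factor of DNA damage tolerance, was at 24.4 ± 1.78 CPM in aDR and 32.03 ± 0.907 CPM in AL (-0.39). Lman2l, a lectin of the early secretory pathway, was at 50.1 ± 1.41 CPM and 64.3 ± 5.88 CPM (-0.35), and Fcrls, a marker of microglia, at 18.6 ± 2.24 CPM and 25.9 ± 3.04 CPM (-0.48). Rexo4 and Fam163a differed by -0.34 and -0.56. Nr1i3 (-0.30) and Tomm40l (-0.29) overlap on chromosome 1 in GENCODE M21, on opposite strands, so that reads of the shared stretch cannot be assigned to 1 of them. None of these was called in edgeR, and DESeq2 called 11 genes: Rbm3, Cirbp, Rbm3os, Ciart and Plin4 as higher, and Chordc1, Calr, Hltf, Kdr, Fabp7 and Lman2l as lower.

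**Figure D3:**
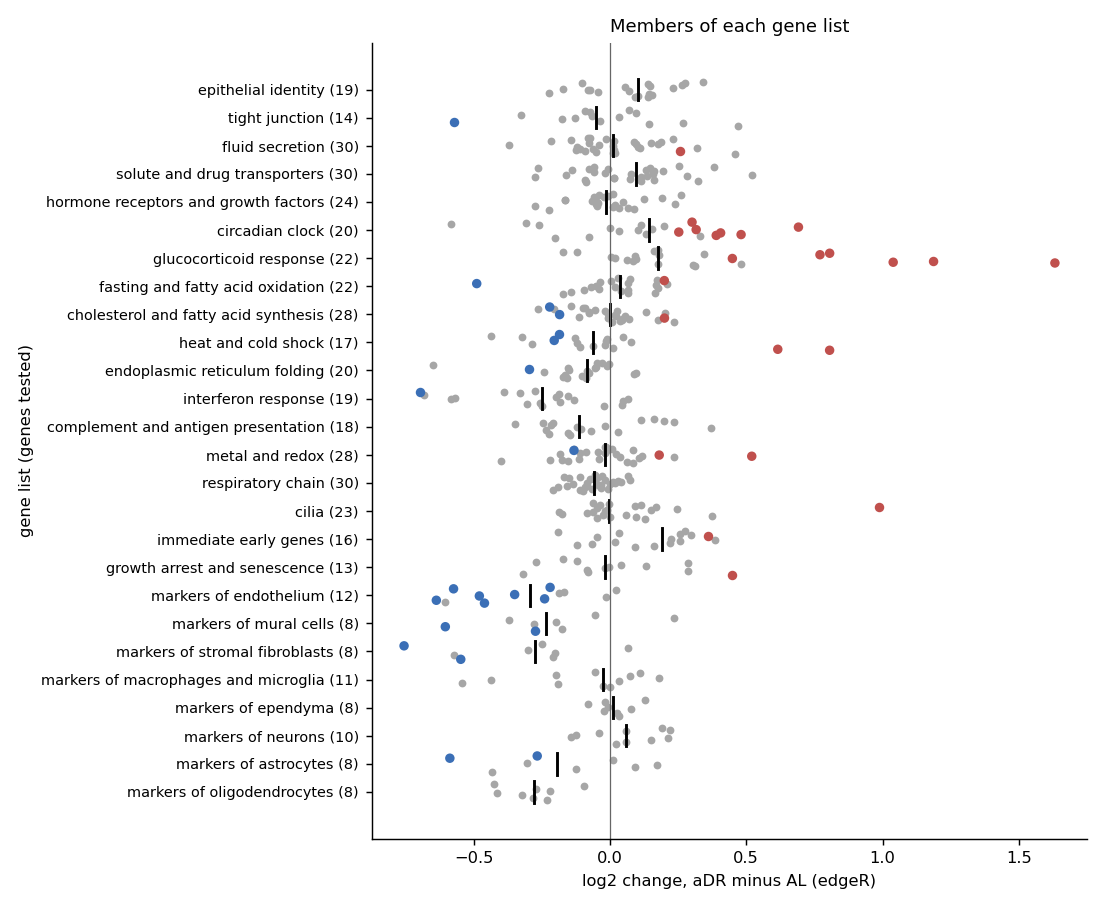
Log2 difference (aDR minus AL, edgeR) of every tested member of each gene list (points), with the list's median (black bar); red and blue mark members higher and lower at an unadjusted p under 0.05. Clock and glucocorticoid lists carry 7 and 6 red points and no blue one, and the endothelial list 7 blue points and no red one, while only Rbm3 of all points was called. The lists were chosen with earlier results of these data known.

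The epithelium was the part of the tissue measured least precisely. None of the 19 epithelial identity genes was called in edgeR, 0 passed an unadjusted p under 0.05, and their median log2 difference was 0.10, with 13 higher and 6 lower. The median was -0.44 without the 3 libraries lowest in epithelium, again with 0 past that threshold. Because epithelial content varied so widely between libraries, the SE was large: for Ttr the log2 difference was 0.14 with an SE of 0.783, and for Kl, the ageing-related co-receptor klotho, 0.15 with an SE of 0.648. The direction of Ttr, Enpp2, Folr1, Kl, Otx2, Prlr, Htr2c, Aqp1, Slc12a2 and Igf2 changed under at least 1 alternative. A set of plexus-enriched genes was therefore chosen in other animals, the 4 choroid plexus libraries of the saline-injected (PBS) males of the plasma experiment. Its genes were at least 20-fold above the median of the other PBS regions and at 5 CPM or more. It held 46 genes, all tested here. In the fit without covariate their log2 differences ran from -0.76 to 0.65, with a median of 0.12, a median SE of 0.70, and 0 at an unadjusted p under 0.05.

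With epithelial content as a covariate the median SE of the 46 was 0.157, and their median log2 difference was -0.0075, with quartiles of -0.12 and 0.15. Of the 19 genes summed in the covariate, 14 are among the 46, so a median near 0 is in part built into that fit. Not all of the 46 followed epithelial content. Spink8 was at 42.5 CPM in aDR mouse 67 and 36.9 CPM in AL mouse 66, both low in epithelium. It was at 23.2 CPM in aDR mouse 64 and 26.7 CPM in AL mouse 69, both high in it. Its share of the set was 4.35% in AL mouse 66 and 0.264% in AL mouse 69, so the shares below also depend on such genes. In it 2 of the 46 were higher and 2 lower at an unadjusted p under 0.05, against 5.07% and 5.92% of all genes, and 0 were called in edgeR. Sostdc1, a secreted inhibitor of BMP and Wnt signals, took 0.862%, 0.727%, 0.995%, 0.771% and 0.765% of the counts of the 46 genes in aDR and 1.05%, 1.146%, 1.02% and 1.11% in AL. Its share lay lower in every aDR library (log2 difference -0.33, SE 0.080, edgeR adjusted p 0.317). Aqp1, the water channel of the apical membrane, took 0.602 ± 0.109% in aDR and 0.416 ± 0.149% in AL (log2 difference 0.40, SE 0.151). The shares of Aqp1 overlapped between the diets. Without the 3 libraries lowest in epithelium, in a fit without covariate, its log2 difference was -0.18. With the covariate, the lactate transporter gene Slc16a8 differed by 0.37 and Fam47e by -0.47. Ttr took 79.6 ± 5.34% of the set in aDR and 77.0 ± 5.34% in AL (log2 difference 0.06, SE 0.093), and Kl 2.76 ± 0.720% and 2.99 ± 0.872% (0.0002, SE 0.126).

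**Figure D4:**
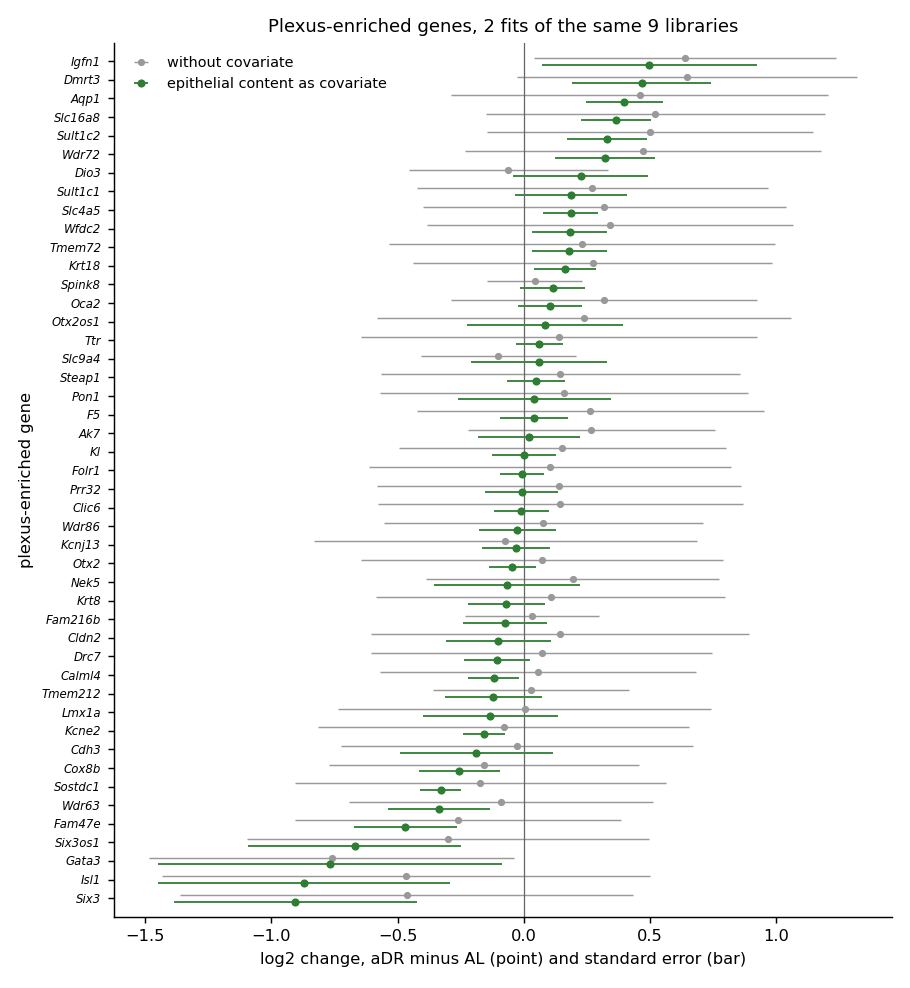
Log2 difference (aDR minus AL) of the 46 plexus-enriched genes, with the standard error as a bar, from the fit without covariate (grey) and the fit with epithelial content as a covariate (green). The grey bars have a median of 0.70 and the green bars one of 0.157, and the green points lie on both sides of 0.

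Lists chosen for the work of the epithelium gave few passing genes. Car2, a carbonic anhydrase of the fluid secretion list, was at 428 ± 157 CPM in aDR and 555 ± 210.4 CPM in AL, which overlapped. It was highest in aDR mouse 61 and AL mouse 68, as was the oligodendrocyte marker Mag. The fluid secretion list summed to 5629 to 7090 CPM in aDR and 5831 to 7409 CPM in AL. Means of the other regions ran from 4572 to 7397 CPM, so this sum does not set epithelium apart from brain tissue. Of 30 solute and drug transporters, 24 hormone receptors and growth factors and 23 cilia genes, 0, 0 and 1 passed an unadjusted p under 0.05 in either direction (Tekt4, a tektin of motile cilia, higher at 1.90 ± 0.730 CPM against 0.910 ± 0.520 CPM). Of 14 tight junction genes, Cldn5 alone passed, which the endothelial list holds too. Among all genes tested, 1.20% passed as higher and 1.55% as lower.

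Immune and metabolic lists held few genes past the threshold in the 9 libraries. At an unadjusted p under 0.05, 1.20% of all genes were higher and 1.55% lower in that fit. Of 19 interferon response genes 16 were lower by direction, with a median log2 difference of -0.25, but 1 passed an unadjusted p under 0.05, Gbp3, a guanylate-binding GTPase (5.21 ± 1.63 CPM against 8.498 ± 3.64 CPM), and summed levels overlapped between diets (205 to 298 CPM and 194 to 371 CPM). Of 18 complement and antigen presentation genes and 11 macrophage and microglia markers, 0 passed. Without the 3 libraries lowest in epithelium, 4 interferon genes, 5 complement and antigen presentation genes and 2 macrophage and microglia markers were lower and 0 higher, against 3.86% and 3.99% of all genes. The medians in that fit were -0.53, -0.33 and -0.15. In it C1qa, a subunit of the complement starter C1q, differed by -0.56 and Lyz2, a lysozyme of macrophages, by -0.91. Lyz2 was at 77.7 and 76.0 CPM in AL mice 68 and 69, the only freely fed mice of that fit. It was at 22.6 and 39.8 CPM in AL mice 63 and 66, which were left out. With all 9 libraries both genes overlapped between the diets. C4b, a complement component, was at 119.7 ± 28.2 CPM in aDR and 129 ± 41.3 CPM in AL. Of 30 respiratory chain genes 0 passed, with a median of -0.06. Fasting and fatty acid oxidation held 1 higher (Sesn1, a stress-induced inhibitor of mTORC1) and 1 lower (Plin2, a lipid droplet coat protein) of 22. Cholesterol and fatty acid synthesis held 1 higher and 2 lower of 28, among them Elovl6, a fatty acid elongase, at 48.5 ± 1.77 CPM and 56.8 ± 3.95 CPM, and Msmo1, a sterol oxidase, at 158 ± 8.69 CPM and 181 ± 8.76 CPM. Of 16 immediate early genes 1 was higher, Nr4a1, at 55.1 ± 11.4 CPM and 42.7 ± 4.80 CPM. No gene of these lists was called in edgeR.

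Markers of brain cells were compared in the same way. Neuron markers had 0 of 10 genes at an unadjusted p under 0.05 and a median log2 difference of 0.06, and ependyma 0 of 8 with 0.01. Oligodendrocyte markers had 0 of 8 and a median of -0.28, with all 8 lower by direction. Mag, a myelin glycoprotein, was at 215 ± 119 CPM in aDR and 288 ± 143 CPM in AL. With the epithelial covariate the oligodendrocyte median was -0.55, and 6 of the 8 were lower at that threshold, against 5.92% of all genes. In that fit 3 of 10 neuron markers were higher and 0 lower, and 1 of 8 astrocyte markers was higher and 4 lower. The shares of all genes there were 5.07% higher and 5.92% lower. Without that covariate, astrocyte markers had 2 lower of 8, Fabp7 and Ntsr2, with a median of -0.20, against 1.55% of all genes. Blood markers stayed between 3.80 and 10.5 CPM in sum, and the 8 lymphocyte markers were too low to be tested (0.567 to 4.13 CPM in sum). With neuron, astrocyte and oligodendrocyte markers summed as a covariate, the log2 differences were 0.70 for Ciart, 1.81 for Plin4, -0.62 for Kdr and -0.57 for Fabp7, none of them called, and Cirbp was called with Rbm3 (0.64, edgeR adjusted p 0.0189).

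The question whether the plexus libraries differed from other brain regions in their diet response was put to the same mice. For each mouse and gene, the mean log2 CPM over 11 other regions was subtracted from that of the plexus library, and aDR and AL mice were compared (limma, 9 plexus libraries and 99 of the other regions). Of 15303 genes, 0 were called (0%), and 327 (2.14%) passed an unadjusted p under 0.05. A fit in edgeR of the same libraries that ignored the mouse also called 0, with 209 at that threshold. No gene can therefore be called particular to the plexus libraries here.

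Rbm3 differed between diets by 0.67 on the log2 scale over the other regions, and the plexus libraries differed from that by 0.14, with a 95% interval of -0.05 to 0.32. It was higher in aDR in 11 of 11 regions, by 0.39 to 0.86. Cirbp gave 0.65 over the other regions and a plexus difference of -0.04 (interval -0.27 to 0.20), and Ciart 0.77 and -0.07 (-0.40 to 0.26). Plin4 gave 2.09 over the other regions and a plexus difference of -0.48 (-1.32 to 0.36). The glucocorticoid list had a median of 0.35 over the other regions and 0.19 in the plexus libraries on the same scale, with 0 of 23 genes differing at an unadjusted p under 0.05. Kdr gave -0.57 with a plexus difference of -0.07 (-0.32 to 0.19), and the endothelial median was -0.25 over the other regions and -0.30 in plexus. The intervals give the range of differences that these mice cannot separate from 0.

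Of the genes with the smallest p, 5 had an interval that did not include 0: Rbm3os (0.36, from 0.11 to 0.62), Map3k9 (0.33, from 0.01 to 0.66), Gsr (0.16, from 0.0045 to 0.31), Rexo4 (-0.15, from -0.31 to -0.003) and Fam163a (-0.29, from -0.57 to -0.01). They were picked for their difference in plexus, which by itself moves these values away from 0, and each had a limma adjusted p of 0.9995. For Ttr the interval ran from -1.10 to 2.11, so that the epithelial genes were not resolved in this comparison.

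**Figure D5:**
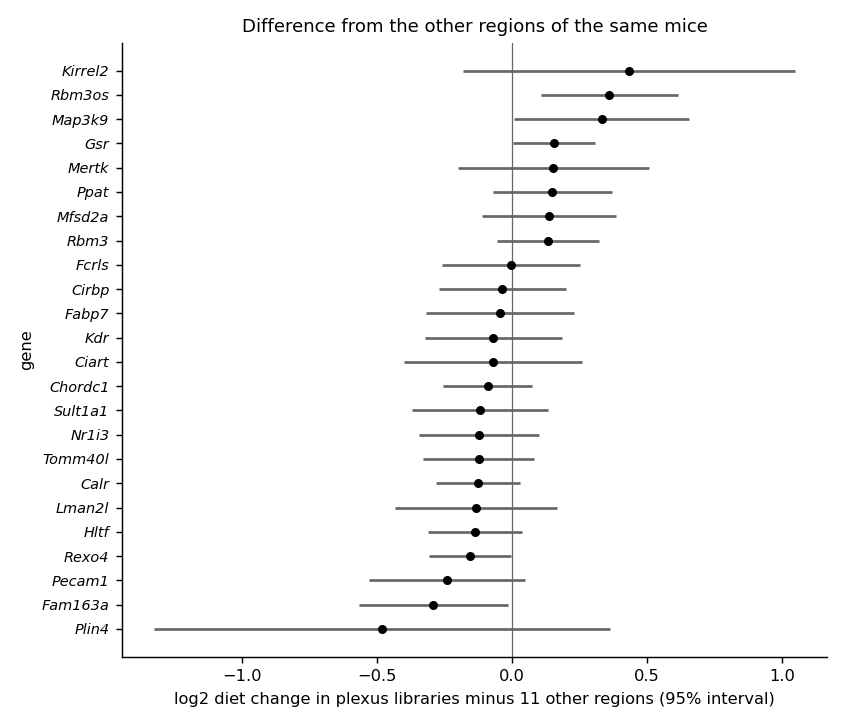
Diet difference in the plexus libraries minus the mean diet difference in 11 other regions of the same mice, on the log2 scale, with the 95% interval from limma, for the called gene and the 23 other genes of smallest p without overlap. Intervals of 19 of the 24 genes include 0, and no gene was called.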

How the data were processed

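RNA was measured in bulk tissue, 1 library per mouse and region. The deposited values are counts, whole numbers of reads per gene in the authors' single table, which has 21076 genes as rows and 238 libraries as columns, with 0 sample columns unused. The submitters' processing notes name Trim Galore 0.3.7, STAR 2.5.3a, DESeq2 and the GRCm38 build, without roles. The counting program and its annotation are not given in the sources used here.

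The 9 plexus libraries were fitted on their own in edgeR 4.0.16 (R 4.3.3, quasi-likelihood test), after filterByExpr (minimum count 10, minimum total 15) and TMM scaling, with diet as the single term. Adjustment of p was by Benjamini and Hochberg over every gene tested, with a threshold of 0.05. Levels are CPM of plain library totals. The plexus library minus the mean of 11 other regions, in log2 CPM with a prior count of 2, was tested with limma 3.58.1. DESeq2 1.42.0, voom, other scalings, filters, covariates and left-out libraries were alternatives. The scripts were tested on simulated data.

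Mouse numbers in the labels tie each plexus library to the other regions of that animal. Deviations from the group means correlated by 0.0355 on average within a mouse and by -0.0095 between mice of a diet, with a positive mean in 8 of 9 mice.

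Genes are named by a rule: called genes, the 12 in each direction with the smallest p among non-overlapping genes of at least 5 CPM, 33 anchor genes, and the 2 members of each list with the smallest p. Other names spell out a count or a list and were chosen after their values were seen. The comparison, the 18 pathway lists, the 10 marker lists and the anchor genes were chosen with earlier results of these data known. Of the listed genes, 4 had no row, and some results for named or listed genes are not reported here. The epithelial covariate, the fit without the 3 libraries lowest in epithelium, and the plexus-enriched set were chosen after seeing the data. Promoters come from RefSeq (GRCm38.p6), and gene positions from GENCODE M21 of the same build.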

Additional observations from a re-analysis of the deposited data

Results flagged for a closer look

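In 5 of 110 groups of 4 or 5 libraries, over the genes named, 1 library stood apart from the rest by Dixon's criterion, and chance gives about 5.5 at the 5% level. Sgk1 was at 402.1 CPM in aDR mouse 61 and at 157.4 to 211.7 CPM in the other aDR mice. Mertk was at 62.12 CPM in aDR mouse 67 and at 41.31 to 46.3 CPM in the others, and Kirrel2 was at 12.86 CPM in the same library, with 6.152 to 7.935 CPM in the other aDR mice. That library was the shallowest and among the 3 lowest in epithelial genes. Ppat was at 34.79 CPM in aDR mouse 64 and at 29.73 to 31.06 CPM in the others. Fabp7 was at 33.23 CPM in AL mouse 66 and at 27.97 to 28.65 CPM in the other AL mice, so that this library lay away from the aDR group.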

How the results depend on the processing

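The count of called genes was 1 in the comparison as reported. It was 0 with RLE scaling and 0 with upper quartile scaling (edgeR adjusted p of Rbm3 0.0516 and 0.0503), 2 with neural markers as a covariate (Rbm3 and Cirbp), 11 in DESeq2, and 0 without the 3 libraries lowest in epithelial genes. Leaving out 1 library gave 0 called genes in each case, for aDR mice 61, 62, 64, 65 and 67 and AL mice 63, 66, 68 and 69, with fewer samples in each fit. Other causes were not tested. The log2 change of Rbm3 stayed between 0.74 and 0.94 in all 20 alternatives and was called in 8 of them. The 24 genes chosen by p do not overlap between the diets, which fixes their sign when a library is left out. Of the 51 genes followed, 15 changed sign in at least 1 alternative, among them Aqp1, Arntl, C4b, Enpp2, Folr1, Htr2c, Igf2, Kl, Nr1d1, Otx2, Pdk4, Prlr, Slc12a2 and Ttr. No paired analysis was possible for the diet comparison because no mouse had both diets. The comparison with other regions is blocked by mouse, and without this block it called 0 genes, as in the other alternatives. At 4 against 5 libraries with unequal epithelial content, small changes of epithelial genes were not detectable in the fit without covariate, where the plexus-enriched genes had a median SE of 0.70. With epithelial content as a covariate their median SE was 0.157, and 0 were called in edgeR.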
